A study of Mus musculus with 28 samples.

Results

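Fibroblasts taken from mouse embryos were compared with fibroblasts taken from the skin of newborn mice, 5 of the 28 libraries of the series. The members are the 3 libraries of embryonic fibroblasts (MEF) and the 2 libraries of neonatal dermal fibroblasts (MNF), chosen by their labels and by the columns that carry their titles in the deposited count table. The series starts from both cell types to derive cells of the endoderm lineage with chemicals, and the remaining 23 libraries belong to the 7 other groups. MEF came from E13.5 embryos, from a cross of Oct4-GFP transgenic mice (CBA/CaJ X C57BL/6J) with 129Sv/Jae females. MNF came from the Oct4-GFP transgenic line (CBA/CaJ X C57BL/6J), with no 129Sv/Jae parent named. Both were cultured to passage 2, both carry the Oct4-GFP reporter allele, and the labels name no treatment for either. The labels name no batch and do not give the part of the embryo used, the postnatal day, the sex or the number of animals. Age, tissue of origin and strain background differ together between the groups, so they cannot be told apart in any value below. Nothing in the labels ties the replicates to different cultures or animals, so a p-value measures only the spread between these libraries.

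Fibroblasts are the matrix-producing cells of connective tissue, and a culture from a whole embryo mixes fibroblasts of limb, trunk and head, whereas a dermal culture comes from one organ. Cultured fibroblasts are known to keep a record of their place of origin in the Hox genes, whose order along each cluster follows the body axis. Embryonic mesenchyme is known for rapid division and high insulin-like growth factor 2, whereas dermis after birth lays down decorin, lumican and type III collagen. Any fibroblast can respond to type I interferon, which signals through JAK kinases to transcription factors, among them STAT2 and IRF9, that switch on antiviral genes.

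The libraries held 3548977 to 5218402 expected counts in MEF and 5273876 and 5394678 in MNF. Values are counts-per-million (CPM) after TMM scaling of these 5 libraries, in the order MEF replicates 1, 2 and 3 and MNF replicates 1 and 2, and means are given ± SD (n = 3 MEF, n = 2 MNF). Log2 fold changes are MNF minus MEF ± SE, so a positive value is higher in MNF. A gene was called, and only then described as higher or lower, when edgeR's quasi-likelihood test gave a Benjamini-Hochberg adjusted p under 0.05 over all genes tested and the change was at least 2-fold. Log2 CPM correlated at 0.958 to 0.969 within MEF, at 0.98 within MNF and at 0.826 to 0.878 between the groups. Where the call of a gene described with its values ended without 1 of the 5 libraries, the adjusted p without that library is given in the same paragraph. A fit without MNF replicate 1 or 2 takes its spread from the MEF libraries alone and assumes that the lone MNF library varies as they do.

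The cells were first checked against markers of fibroblasts. All 20 markers on that list were detected and tested. Pdgfrb, a receptor for platelet-derived growth factor on mesenchymal cells, had 418, 458 and 519 CPM in MEF and 452 and 447 CPM in MNF. Thy1, a surface glycoprotein of fibroblasts, had 651, 356 and 643 CPM in MEF and 455 and 645 CPM in MNF, and the transcription factor Prrx1 had 545, 410.0 and 486 CPM in MEF and 424 and 448 CPM in MNF. For these 3 markers the groups overlapped and none was called. Vimentin (Vim), the mesenchymal intermediate filament, had 4751 ± 959 CPM in MEF and 2986 ± 336 CPM in MNF and was not called. Of the 20 markers 7 were higher in MNF (Dcn, Twist1, Lum, Pdgfra, Sparc, Fbn1 and Col3a1), beside 11.4% of all 12762 genes tested, and 1 was lower (Fap), beside 11.3%. Fap, a surface protease of activated fibroblasts, had 16.5, 25.4 and 26.6 CPM in MEF and 10.5 and 7.57 CPM in MNF (log2 fold change -1.35 ± 0.28, adjusted p = 0.00741), and without MNF replicate 2 its adjusted p was 0.0709.

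On the list of dermal fibroblast genes the groups separated in both directions. Of 18 tested members 7 were higher in MNF and 4 were lower, and the 18 had 0.35 as their median log2 fold change. Over all genes tested the median was 0.01, and the medians of the lists below are also of log2 fold changes. The called counts of this list and of every list below stand beside 11.4% of all genes higher and 11.3% lower. Dermatopontin (Dpt), a dermal matrix protein that binds decorin, had 2.99, 4.69 and 4.98 CPM in MEF and 193 and 153 CPM in MNF (log2 fold change 5.32 ± 0.21, adjusted p = 4.95e-05). Ly6a, which encodes the surface antigen Sca-1, had 13.47, 17 and 22.6 CPM in MEF and 108 and 153 CPM in MNF (log2 fold change 2.88 ± 0.23, adjusted p = 0.000206). En1, a homeobox gene that marks a fibroblast lineage of back skin, had 23.6, 19.9 and 27.1 CPM in MEF and 57.8 and 52.3 CPM in MNF (log2 fold change 1.23 ± 0.17, adjusted p = 0.00134). For each of these 3 genes both MNF libraries lay above all MEF libraries, as they did at 34.0% of all genes tested. Apcdd1 and Trps1 lay the other way. Apcdd1, a Wnt inhibitor, had 33.5, 50.6 and 28.1 CPM in MEF and 12.3 and 11.8 CPM in MNF (log2 fold change -1.64 ± 0.28, adjusted p = 0.00296). Trps1, a zinc finger factor of hair and skeletal development, had 21, 37.7 and 33.3 CPM in MEF and 11.2 and 8.68 CPM in MNF (log2 fold change -1.63 ± 0.29, adjusted p = 0.00357). Twist2 (Dermo1), a dermal transcription factor, had 97.2 ± 10.7 CPM in MEF and 68.9 ± 8.43 CPM in MNF and was not called.

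Several lists of markers of other cell types moved with the group. In bulk RNA, fewer cells of a type and less RNA per cell cannot be told apart. Chondrocyte genes summed to 478, 1444 and 616 CPM in MEF and to 341 and 284 CPM in MNF. Of 9 tested members 5 were lower in MNF and 1 was higher. Acan, the cartilage proteoglycan aggrecan, had 13.8, 44.8 and 11.2 CPM in MEF and 0 and 0 CPM in MNF, at least 84.2-fold higher in MEF over a floor of 3 counts in the MNF group (adjusted p = 0.00303). Skeletal muscle genes summed to 240, 526 and 172 CPM in MEF and to 45.7 and 35.5 CPM in MNF, and 4 of 9 were lower in MNF. MEF replicate 2 was the highest library on both lists. Adipocyte genes summed to 45.8 to 54 CPM in MEF and to 1133 and 859 CPM in MNF, of which Lpl alone made up 30.8, 30.3 and 37.6 CPM in MEF and 1059 and 801 CPM in MNF. Of 6 tested adipocyte genes 3 were higher in MNF (Lpl, Cebpa and Pparg). Both MNF libraries lay above every MEF library for all 6, beside 34.0% of all genes tested. Adipoq had 0, 0 and 0 CPM in MEF and 1.28 and 0.369 CPM in MNF and Plin1 had 0, 0 and 0 CPM in MEF and 1.65 and 0 CPM in MNF, while Cidec, Lep and Retn had no count in any of the 5 libraries. Without MNF replicate 1 the adjusted p of Pparg was 0.0544. Osteoblast genes summed to 429.5, 266 and 702 CPM in MEF and to 84.4 and 124 CPM in MNF, and 2 of 4 tested were lower, among them Spp1, the largest contributor. Endothelial genes summed to 154 to 203 CPM in MEF and to 60.9 and 30.7 CPM in MNF, and of 6 tested 2 were lower and 1 was higher. Pericyte genes summed to 229 to 388 CPM in MEF and to 270 and 235 CPM in MNF, and of 7 tested 3 were lower and 2 were higher. Keratinocyte genes summed to 93.6 to 141 CPM in MEF and to 27.4 and 30.5 CPM in MNF, of which Itga6, an integrin not restricted to keratinocytes, made up 115, 110.3 and 77.4 CPM in MEF and 9.91 and 17.5 CPM in MNF. Of 5 tested keratinocyte genes 3 were lower and 1 was higher. Macrophage genes summed to 62.8 to 95.6 CPM in MEF and to 53.6 and 81.2 CPM in MNF. Melanocyte genes summed to 5.47 to 8.41 CPM in MEF and to 14.3 and 12 CPM in MNF, and Schwann and neural genes to 128 to 171 CPM in MEF and to 53.4 and 131 CPM in MNF. Of 2 tested melanocyte genes 1 was higher, and of 11 Schwann and neural genes 3 were lower and 1 was higher. None of the globin genes Hba-a1, Hba-a2, Hbb-bs and Hbb-bt had a count in any of the 5 libraries.

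Mesothelial genes set the MNF libraries apart from each other. Of 7 tested, 3 were lower in MNF. They summed to 75.7 to 81.9 CPM in MEF, to 81.7 CPM in MNF replicate 1 and to 3.51 CPM in MNF replicate 2. Lrrn4, a mesothelial surface protein, had 6.59, 8.41 and 9.21 CPM in MEF and 29.2 and 0 CPM in MNF. Upk1b, a uroplakin, had 4.19, 6.06 and 9.46 CPM in MEF and 16.9 and 0 CPM in MNF. Neither was called, and without MNF replicate 1 the log2 fold change of Lrrn4 turned from 0.85 to -8.19 and that of Upk1b from 0.35 to -7.89. Both of these are fitted values against a library with no count and set no bound on the fold. The part of mesothelial cells in the results below was not tested beyond the values given without MNF replicate 1. Xist, transcribed from the inactive X chromosome, had 374, 314 and 399 CPM in MEF and 427 and 698 CPM in MNF. The Y-linked gene Ddx3y had 50.9, 39.5 and 45.8 CPM in MEF and 37.8 and 26.8 CPM in MNF, so each library held RNA of both kinds.

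Over the whole transcriptome the groups differed at 2902 of 12762 genes tested (22.7%), with 1454 higher in MNF and 1448 lower. Both MNF libraries lay above every MEF library at 4338 genes (34.0%), and every MEF library lay above both MNF libraries at 4230 genes (33.1%). Without MNF replicate 1 the counts were 794 higher and 989 lower, and without MNF replicate 2 they were 945 higher and 1167 lower. Fitted with all 28 libraries of the series, whose other groups are other kinds of cell, the same comparison gave 629 higher and 751 lower. The 51 lists held 941 distinct genes, of which 779 were tested and 382 were called.

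**Figure D1:**
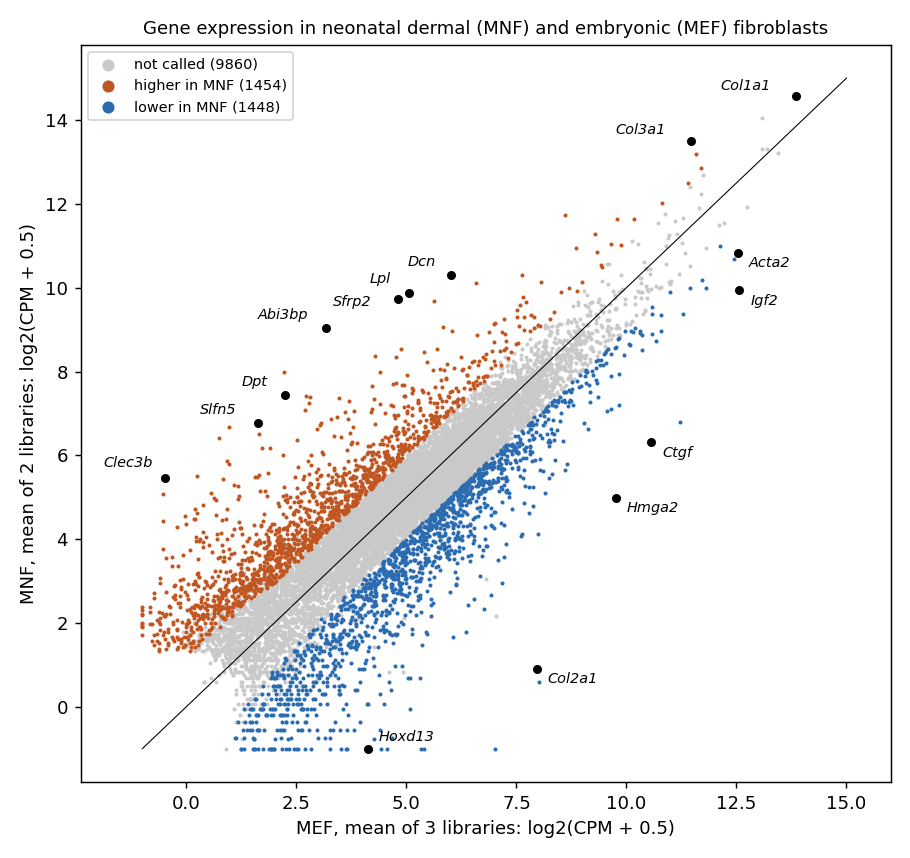
Mean expression of each tested gene in MNF (vertical axis, 2 libraries) against MEF (horizontal axis, 3 libraries), both as log2(CPM + 0.5), with the line of equality. Orange points (1454) were called higher in MNF and blue points (1448) lower, and 15 genes described in the text are drawn in black, Dcn, Lpl and Sfrp2 far above the line and Hmga2, Ctgf and Col2a1 far below it.

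**Figure D2:**
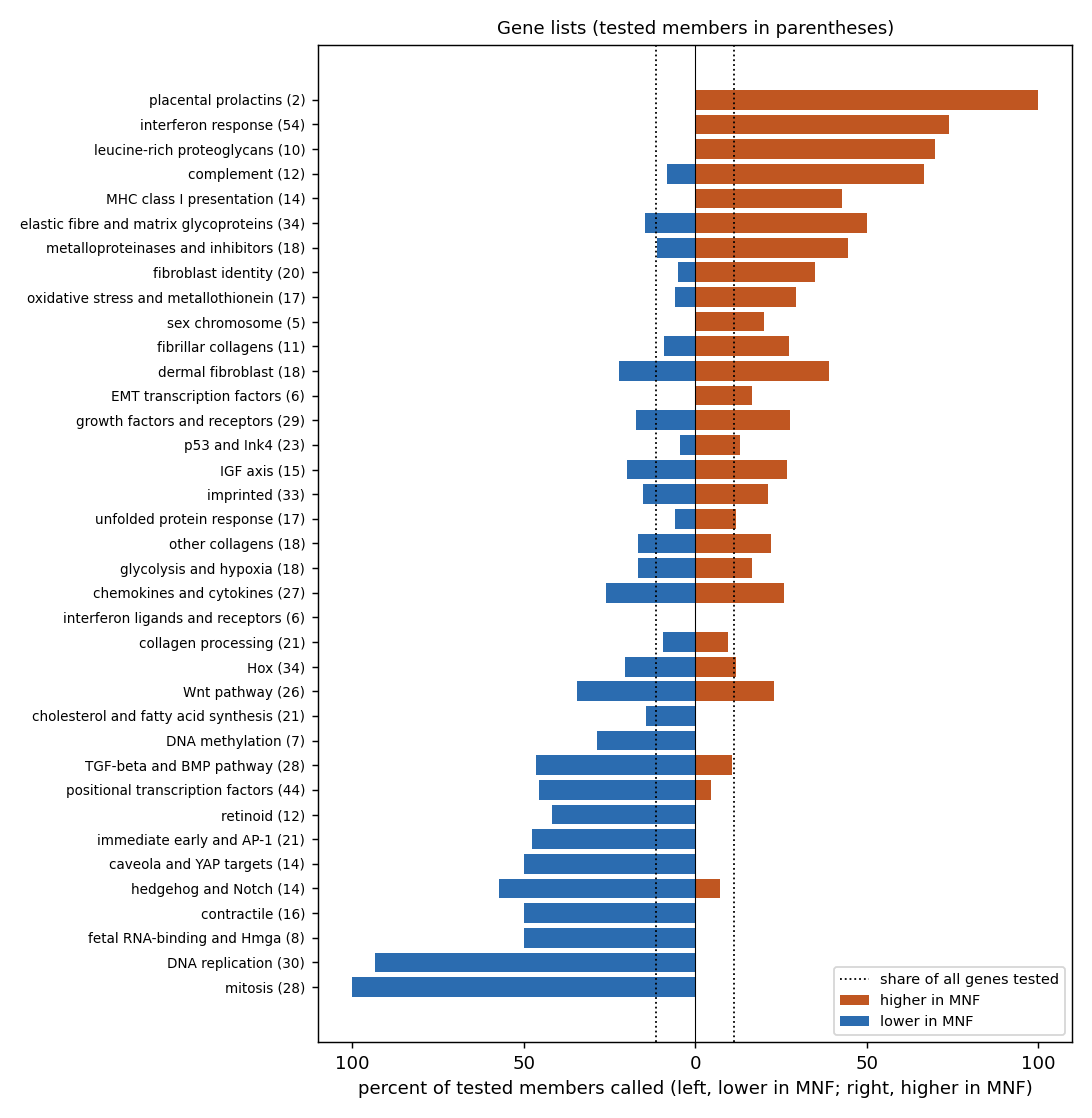
Share of the tested members of each gene list, markers of other cell types aside, that was called higher in MNF (orange, to the right) or lower (blue, to the left), in percent, with the number tested in parentheses. Dotted lines mark the shares over all genes, 11.4% higher and 11.3% lower, with mitosis (28 of 28 lower) at the bottom and, at the top, the interferon response (40 of 54 higher) under the placental prolactins, of which only 2 near copies, Prl2c2 and Prl2c3, were tested.

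The 12 largest rises in MNF, taken from called genes whose groups did not overlap and whose MNF mean reached 32 CPM, included several secreted and matrix proteins. Clec3b encodes tetranectin, a plasminogen-binding protein, and had 0, 0.391 and 0.249 CPM in MEF and 51.9 and 34.7 CPM in MNF. Its 3 counts over all MEF libraries against 471 in MNF give a ratio of 180.0-fold (95% counting interval 61.3 to 877). Cilp, a matrix protein that binds TGF-beta, also had 3 counts in MEF, at 0, 0.587 and 0 CPM in MEF and 34.9 and 32.1 CPM in MNF, a ratio of 139-fold (95% counting interval 47.3 to 679). Abi3bp, a matrix protein, had 1.8, 14.1 and 9.71 CPM in MEF and 643 and 409 CPM in MNF (log2 fold change 5.87 ± 0.50, adjusted p = 0.000251). Egfl6, an EGF-repeat matrix protein of skin, had 1.8, 8.8 and 1.99 CPM in MEF and 338 and 169 CPM in MNF (log2 fold change 5.79 ± 0.53, adjusted p = 0.000297). In all 4 genes both MNF libraries lay far above the MEF libraries, and MNF replicate 1 was the higher. Xdh, xanthine dehydrogenase of purine breakdown, had 0.299, 0.978 and 2.24 CPM in MEF and 89.2 and 81.4 CPM in MNF (log2 fold change 6.12 ± 0.34, adjusted p = 8.08e-05). Receptors among the 12 were Vipr2, for vasoactive intestinal peptide, at 0, 0.587 and 1.49 CPM in MEF and 45.9 and 43.6 CPM in MNF (log2 fold change 5.91 ± 0.45, adjusted p = 0.000185), the adhesion receptor Adgrd1, at 2.1, 0.587 and 1.74 CPM in MEF and 55.4 and 54.3 CPM in MNF (log2 fold change 5.29 ± 0.31, adjusted p = 0.000101), and the scavenger receptor Scara5, at 0.299, 3.91 and 0 CPM in MEF and 69.7 and 46.3 CPM in MNF (log2 fold change 5.13 ± 0.65, adjusted p = 0.000995). Dpt and Slfn5 complete the list with Ugt1a6a (65.9-fold) and Ugt1a7c (32.9-fold), glucuronosyltransferases whose genes overlap on chromosome 1 and share exons, so that the split of reads between them is uncertain.

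The 12 largest falls included genes with few or no counts in MNF. Gm4737 (chr16:46152985-46155077 on GRCm38, GENCODE M21) had 145, 128 and 114 CPM in MEF and 0 and 0 CPM in MNF, at least 467-fold higher in MEF (adjusted p = 5.99e-05). The processed pseudogene Gm6768 (chr12:119260978-119262855) had 44, 45 and 36.3 CPM in MEF and 0 and 0 CPM in MNF, at least 151-fold (adjusted p = 9.69e-05). A pseudogene shares sequence with its parent gene, so which copy gave these reads is uncertain. Igf2os, annotated on the opposite strand of Igf2, had 24.5, 40.9 and 34.3 CPM in MEF and 0.551 and 0.369 CPM in MNF, and since the strand setting of the counting is not given in the sources used here, its reads and those of Igf2 cannot be told apart. Itga4, the integrin alpha-4 chain, had 62.3, 53.8 and 82.4 CPM in MEF and 2.57 and 2.77 CPM in MNF (log2 fold change -4.61 ± 0.28, adjusted p = 0.000101). The tolloid-like protease Tll1 had 170.0, 81.1 and 70.9 CPM in MEF and 3.49 and 5.54 CPM in MNF (log2 fold change -4.56 ± 0.49, adjusted p = 0.000509). The MAP kinase phosphatase Dusp5 had 125, 75.5 and 42.1 CPM in MEF and 2.57 and 3.32 CPM in MNF (log2 fold change -4.76 ± 0.54, adjusted p = 0.000643). F2rl1, a protease-activated receptor, had 49.1, 16.6 and 51.8 CPM in MEF and 1.28 and 0.923 CPM in MNF (log2 fold change -5.099 ± 0.66, adjusted p = 0.00105). Gjb2, the gap junction protein connexin 26, had 52.4, 17.2 and 30.6 CPM in MEF and 0.734 and 1.48 CPM in MNF (log2 fold change -4.87 ± 0.62, adjusted p = 0.00104). Like the rises, the falls were taken only from called genes whose groups did not overlap. By that rule every MEF library lay above both MNF libraries for each of these 8 genes. Also among the 12 were Hmga2, described below, and Col2a1 and Actc1, where MEF replicate 2 is far above the rest. Col2a1, the collagen of cartilage, had 92.5, 603 and 53.8 CPM in MEF and 0.551 and 2.22 CPM in MNF. Actc1, cardiac actin, had 6.29, 85.8 and 4.48 CPM in MEF and 1.28 and 0.923 CPM in MNF. Without MNF replicate 1 the adjusted p was 0.0514 for Col2a1 and 0.156 for Actc1, and without MNF replicate 2 it was 0.159 for Actc1.

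Of 34 tested Hox genes 7 were lower in MNF (20.6%, beside 11.3% of all genes) and 4 were higher (11.8%, near the 11.4% of all genes), and the median log2 fold change was -0.42. The posterior end of the Hoxd and Hoxa clusters had few or no counts in MNF. Hoxd13 (chr2:74668310-74671599), which patterns the digits and the genital tubercle, had 9.88, 11.1 and 29.6 CPM in MEF and 0 and 0 CPM in MNF, at least 61.1-fold higher in MEF (adjusted p = 0.00183). Hoxa13 (chr6:52257694-52260880), its paralogue in hand and foot, had 2.99, 3.32 and 6.72 CPM in MEF and 0 and 0 CPM in MNF, at least 15.7-fold (adjusted p = 0.00338). Hoxd12 had 1.2, 2.93 and 4.48 CPM in MEF and 0 and 0 CPM in MNF, at least 10.4-fold (adjusted p = 0.00824). Hoxd11 had 5.99, 6.26 and 10.2 CPM in MEF and 0 and 0.185 CPM in MNF, or 93 counts against 1, a ratio of 81-fold (95% counting interval 14.2 to 3230.0), with an adjusted p of 0.00113. Every MEF library lay above both MNF libraries for these 4 genes, as it did at 33.1% of all genes tested. MEF replicate 3 was the highest library for each. Hoxa11, a gene of the forearm and lower leg, had 11.4, 13.3 and 14.9 CPM in MEF and 6.61 and 1.29 CPM in MNF (log2 fold change -1.74 ± 0.54, adjusted p = 0.0344), and its MNF libraries differed by more than its MEF libraries. For Hoxd12 the adjusted p was 0.0586 without MNF replicate 1 and 0.0522 without MNF replicate 2. For Hoxa11 it was 0.0968 without MNF replicate 2, 0.0549 without MEF replicate 1 and 0.0886 without MEF replicate 3.

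Farther forward in the clusters the differences were smaller and ran both ways. Hoxb9 had 61.4, 50.8 and 57 CPM in MEF and 22.6 and 24.9 CPM in MNF (log2 fold change -1.24 ± 0.15, adjusted p = 0.00091). Hoxa5 had 18.3, 29.1 and 16.2 CPM in MEF and 8.81 and 9.79 CPM in MNF (log2 fold change -1.198 ± 0.30, adjusted p = 0.0149). In the Hoxd cluster Hoxd8, Hoxd4 and Hoxd3 were higher in MNF, Hoxd9 was not called and Hoxd1 was not tested. Hoxd4 is annotated within the span of Hoxd3 on the same strand, so the split of reads between them is uncertain. Hoxd8 had 15.6, 10.9 and 13.2 CPM in MEF and 48.5 and 41.4 CPM in MNF (log2 fold change 1.77 ± 0.19, adjusted p = 0.000521). Hoxd4 had 2.1, 2.35 and 4.98 CPM in MEF and 18.9 and 11.8 CPM in MNF (log2 fold change 2.28 ± 0.41, adjusted p = 0.00398). Hoxd3 had 2.1, 5.47 and 1.74 CPM in MEF and 12.1 and 7.02 CPM in MNF (log2 fold change 1.56 ± 0.51, adjusted p = 0.0406). Hoxc8, a gene of the trunk, had 20.7, 20.9 and 20.4 CPM in MEF and 42.8 and 57.8 CPM in MNF (log2 fold change 1.28 ± 0.17, adjusted p = 0.00128). The MNF libraries themselves differed at several genes of paralogue group 10. Hoxa10 had 25.1, 25.4 and 22.1 CPM in MEF and 32.9 and 4.8 CPM in MNF. Hoxc10 had 19.2, 24 and 14.4 CPM in MEF and 31.9 and 9.6 CPM in MNF. Hoxd10 had 4.79, 4.3 and 5.72 CPM in MEF and 3.3 and 0.185 CPM in MNF. None of the 3 was called, and in each MNF replicate 1 was well above MNF replicate 2. The 5 Hox genes that were not tested had at most 11 counts in either group. Without MNF replicate 2 the count of lower Hox genes was 4 and without MNF replicate 1 that of higher genes was 2. The adjusted p without MNF replicate 1 was 0.0623 for Hoxd4, 0.301 for Hoxd3 and 0.106 for Hoxa5. Without MNF replicate 2 it was 0.0717 for Hoxd3 and 0.0707 for Hoxa5. Hoxd3 also missed the threshold without MEF replicate 1 (0.0977) or 3 (0.0993), and without MEF replicate 2 the log2 fold change of Hoxa5 was -0.89, under 2-fold (adjusted p = 0.0196).

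**Figure D3:**
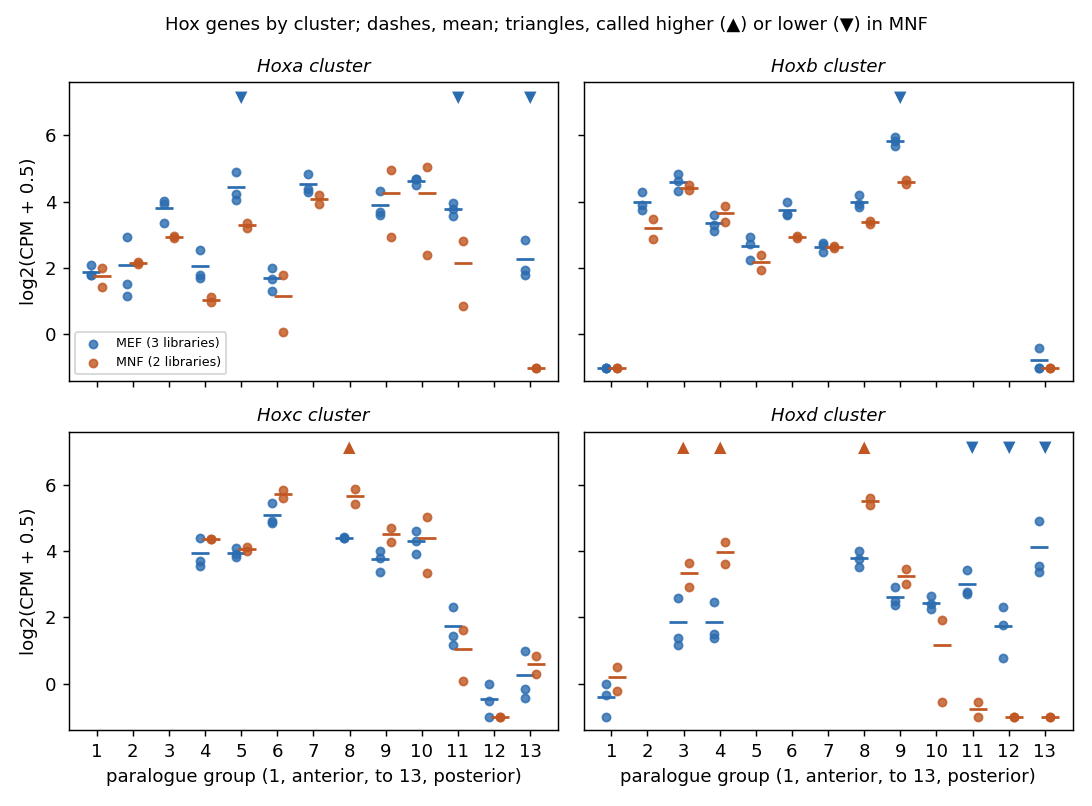
Expression of each Hox gene as log2(CPM + 0.5) (vertical axis) by paralogue group from anterior to posterior (horizontal axis) in the 4 clusters. Each library is 1 point (blue for MEF and orange for MNF). Dashes mark the mean CPM of each group, placed on the same log2(CPM + 0.5) scale. Triangles mark the 4 genes called higher and the 7 called lower in MNF, and Hoxd13, Hoxd12 and Hoxa13 sit at 0 CPM in both MNF libraries.

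Of 44 tested transcription factors that pattern limb, head and trunk, 20 were lower in MNF, 2 were higher and 22 were not called, with a median log2 fold change of -1.34. Foxd1, a forkhead factor of kidney stroma and facial mesenchyme, had 23, 38.1 and 14.2 CPM in MEF and 0 and 0.185 CPM in MNF, and its 329 counts against 1 give a ratio of 287-fold (95% counting interval 51.1 to 11400.0), with an adjusted p of 0.000518. The hindlimb factors Pitx1 and Tbx4 were both lower. Pitx1 had 15.3, 22.1 and 13.4 CPM in MEF and 0.734 and 0.369 CPM in MNF (log2 fold change -4.88 ± 0.46, adjusted p = 0.000343). Tbx4 had 4.49, 11.7 and 8.96 CPM in MEF and 0 and 0.185 CPM in MNF, a ratio of 96.7-fold (95% counting interval 17 to 3850.0), with an adjusted p of 0.00148. The forelimb factor Tbx5 had 9.58, 15.4 and 14.4 CPM in MEF and 5.14 and 6.65 CPM in MNF (log2 fold change -1.17 ± 0.31, adjusted p = 0.0188), and without MNF replicate 1 its adjusted p was 0.144, without MNF replicate 2 0.0659 and without MEF replicate 3 0.0513. Alx1, Foxc1 and Foxc2 were lower too. Alx1 had 2.99, 7.62 and 5.23 CPM in MEF and 0 and 0 CPM in MNF, at least 19.1-fold higher in MEF (adjusted p = 0.00259). Foxc1 had 28.7, 64.3 and 36.1 CPM in MEF and 2.2 and 3.69 CPM in MNF (log2 fold change -3.87 ± 0.45, adjusted p = 0.000697). Foxc2 had 48.8, 38.9 and 16.4 CPM in MEF and 2.02 and 3.69 CPM in MNF (log2 fold change -3.59 ± 0.53, adjusted p = 0.00181). Eya1, a transcriptional coactivator, had 7.48, 9.97 and 9.71 CPM in MEF and 0.183 and 0.185 CPM in MNF, a ratio of 50.1-fold (95% counting interval 13.6 to 418), with an adjusted p of 0.000373. Lhx9, a limb LIM-homeobox factor, had 20.7, 10.9 and 18.2 CPM in MEF and 0.367 and 0.739 CPM in MNF (log2 fold change -4.83 ± 0.51, adjusted p = 0.00046). Hand2, which marks the posterior limb bud, had 13.2, 12.1 and 13.4 CPM in MEF and 2.2 and 2.22 CPM in MNF (log2 fold change -2.53 ± 0.30, adjusted p = 0.000761). For each of these genes the MNF libraries lay below all MEF libraries, as they did at 33.1% of all genes tested.

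Also lower were Lhx2, Msx2, Sim2, Pax1, Lmx1b, Msx1, Alx4, Tbx2 and Sall1. Prrx2, a homeobox factor of limb and skin mesenchyme, was with En1 the only member called higher, at 36.8, 68.4 and 35.3 CPM in MEF and 109.9 and 107 CPM in MNF (log2 fold change 1.197 ± 0.27, adjusted p = 0.00946), and without MNF replicate 1 its adjusted p was 0.0593. Several factors of mesenchyme differed by less than 2-fold. Tbx15, which is needed for dorsal skin and skeleton, had 92.8 ± 10.6 CPM in MEF and 181 ± 2.72 CPM in MNF (log2 fold change 0.96), and Shox2 had 34.5 ± 1.08 CPM in MEF and 58.9 ± 4.7 CPM in MNF. Meis2 had 57.1 ± 13.9 CPM in MEF and 57.1 ± 9.78 CPM in MNF. None of these 3 was called. Without MNF replicate 1 the adjusted p was 0.0828 for Tbx2, 0.0527 for Sall1 and 0.06 for Lhx2. Without MNF replicate 2 it was 0.053 for Tbx2, 0.0918 for Sall1, 0.0532 for Lhx2 and 0.12 for Msx1. Msx1 also missed the threshold without MEF replicate 3 (0.0519). The count of lower members ranged from 15 to 18 over the 5 fits that left out 1 library.

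All called genes of the interferon response were higher in MNF. Of 62 genes on the list 54 were tested, 40 were called higher in MNF and none was called lower, and the 54 had 2.12 as their median log2 fold change. The count called was 31 without MNF replicate 1 and 30 without MNF replicate 2. The regulatory sequences of 4 of the members with the smallest adjusted p are shown first, since they carry the interferon-stimulated response element, which IRF9 complexes are known to bind. The element was searched as GAAA, any 2 bases and a second GAAA, on both strands of the RefSeq window from 250 bases before to 50 bases after each gene's start (GRCm38.p6). Each line gives 90 bases of it, 5′ to 3′ on the strand of the gene, with matches in capitals. They lie at chr11:82951907-82951996 on the plus strand (Slfn5), chr19:34583367-34583456 on the plus strand (Ifit3), chr19:34640764-34640853 on the plus strand (Ifit1) and chr1:173942493-173942582 on the minus strand (Ifi203).
Slfn5: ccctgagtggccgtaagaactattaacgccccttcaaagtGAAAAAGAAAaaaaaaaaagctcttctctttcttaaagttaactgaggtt
Ifit3: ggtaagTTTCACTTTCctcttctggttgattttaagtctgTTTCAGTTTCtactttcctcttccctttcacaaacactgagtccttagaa
Ifit1: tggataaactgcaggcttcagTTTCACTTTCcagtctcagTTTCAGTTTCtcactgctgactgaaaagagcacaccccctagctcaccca
Ifi203: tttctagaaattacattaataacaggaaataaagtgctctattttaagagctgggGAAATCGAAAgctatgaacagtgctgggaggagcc

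A match was present in 27 of the 48 members with a RefSeq window (56.2%) and in 3.99% of all 27025 windows. Among tested members with a match 19 of 22 were called higher, and among those with a window but no match 9 of 19 were. Tested members without a window are in neither count. Over the whole list, these included, 40 of 54 tested were called higher. A match describes the letters of the window and not a site in use.

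Slfn5, a member of the Schlafen family, had 2.1, 3.71 and 1.99 CPM in MEF and 105 and 112 CPM in MNF (log2 fold change 5.32 ± 0.22, adjusted p = 5.23e-05). Ifit3, whose protein binds viral RNA in a complex with Ifit1, had 0.898, 1.37 and 0.995 CPM in MEF and 32.5 and 27.5 CPM in MNF (log2 fold change 4.72 ± 0.28, adjusted p = 0.000101). Ifit1 had 0.599, 2.15 and 2.49 CPM in MEF and 38 and 37.5 CPM in MNF (log2 fold change 4.35 ± 0.34, adjusted p = 0.000198). Dhx58, a helicase of the RIG-I family, had 0.898, 0.587 and 0.498 CPM in MEF and 13.8 and 16.2 CPM in MNF (log2 fold change 4.49 ± 0.38, adjusted p = 0.00024). Gbp2, a guanylate-binding protein, had 4.79, 4.69 and 3.23 CPM in MEF and 29.7 and 30.1 CPM in MNF (log2 fold change 2.81 ± 0.23, adjusted p = 0.000223). In all 5 the MNF libraries lay close together and above every MEF library, and they lay above at 34.0% of all genes tested. Ifi27, a mitochondrial protein, had 14.7, 15.8 and 9.71 CPM in MEF and 101 and 103 CPM in MNF (log2 fold change 2.92 ± 0.19, adjusted p = 0.000131). Parp9, of the ADP-ribosyltransferase family, had 10.2, 11.1 and 11.9 CPM in MEF and 42.4 and 46.9 CPM in MNF (log2 fold change 2.003 ± 0.17, adjusted p = 0.000222). Ifi203 had 3.89, 2.54 and 2.49 CPM in MEF and 40.01 and 29.9 CPM in MNF (log2 fold change 3.57 ± 0.27, adjusted p = 0.000185). Ifit3 and Ifi203 have near copies in the mouse genome, so the share of reads given to each is less certain.

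Of the genes of the signal path, named for their role after the values were seen, Stat2, Irf9 and Irf7 were higher in MNF. Stat2 had 17.4, 22.7 and 37.8 CPM in MEF and 129 and 121 CPM in MNF (log2 fold change 2.26 ± 0.27, adjusted p = 0.000752). Irf9 had 10.8, 18.8 and 20.7 CPM in MEF and 65 and 65.4 CPM in MNF (log2 fold change 1.94 ± 0.23, adjusted p = 0.000781). Irf7, which amplifies interferon production, had 0.599, 2.15 and 0.995 CPM in MEF and 22.4 and 20.5 CPM in MNF (log2 fold change 3.98 ± 0.39, adjusted p = 0.000373). The receptor chain Ifnar1 had 85.9 ± 23.4 CPM in MEF and 99.4 ± 3.74 CPM in MNF and the chain Ifnar2 had 39.2 ± 5.9 CPM in MEF and 73.1 ± 1.35 CPM in MNF. The kinase Jak1 had 275 ± 14.6 CPM in MEF and 392 ± 18.7 CPM in MNF. These 3 genes differed by less than 2-fold and were not called. On the list of interferon ligands and receptors 6 genes were tested, with a median of 0.37. Both MNF libraries lay above every MEF library at 4 of them, beside 34.0% of all genes, and below at 1. Whether steps of the path differ from each other was not tested. No interferon gene on the list (Ifnb1, Ifna2, Ifna4, Ifng, Ifnl2 and Ifnl3) had a count in any of the 5 libraries, which at these depths allows up to 0.24 CPM over MEF and 0.276 CPM over MNF (a count of 3 over the group, counting error only). Members of the response that were not called and had the highest levels were Samhd1 (log2 fold change -0.56), Trim25 (0.29), Adar (0.41) and Eif2ak2 (0.77). Ptprc, the pan-leukocyte antigen, had 1.5, 1.17 and 0.747 CPM in MEF and 0.734 and 0.739 CPM in MNF.

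**Figure D4:**
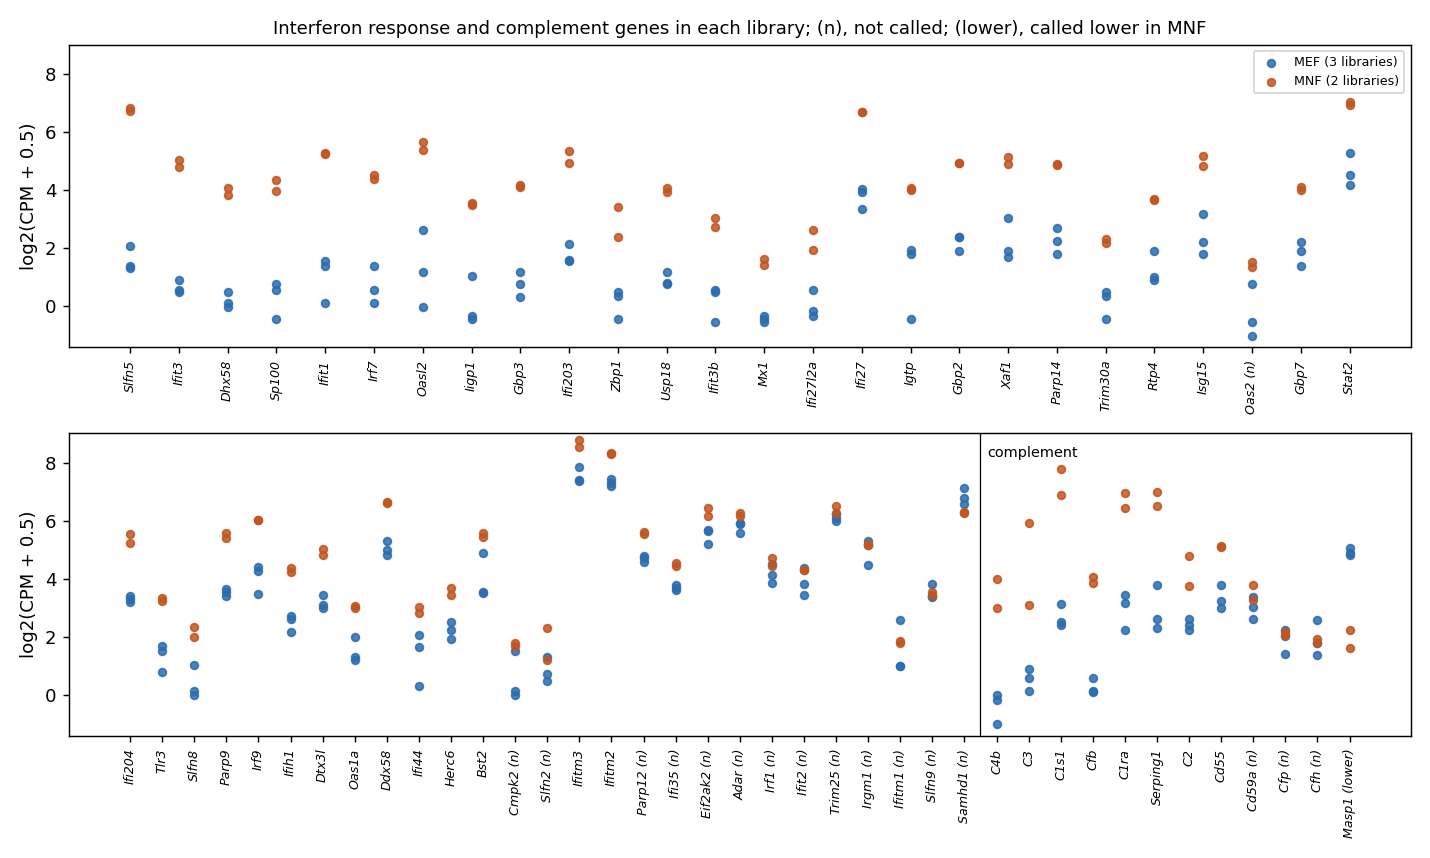
Expression as log2(CPM + 0.5) (vertical axis) of tested interferon response genes, ordered by log2 fold change over both panels, and of 12 complement genes (right of the line in the lower panel), with 1 point per library (blue, MEF; orange, MNF). Genes marked (n) were not called, and Masp1 alone is marked lower in MNF.

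Of 14 tested genes of MHC class I presentation 6 were higher in MNF and none was lower, with a median of 0.88. Tap2, a chain of the peptide transporter, had 8.38, 5.87 and 7.71 CPM in MEF and 46.4 and 39.3 CPM in MNF (log2 fold change 2.56 ± 0.21, adjusted p = 0.000215). The class I gene H2-K1 had 33.5, 26 and 30.6 CPM in MEF and 70.5 and 73.7 CPM in MNF (log2 fold change 1.27 ± 0.15, adjusted p = 0.000744). H2-T23, a nonclassical class I gene, had 7.48, 8.21 and 4.98 CPM in MEF and 32.7 and 36.2 CPM in MNF (log2 fold change 2.31 ± 0.24, adjusted p = 0.000414). The class I genes are close copies of each other and vary between mouse strains, so their values are less certain. B2m, the common light chain, had 239.7 ± 2.24 CPM in MEF and 343 ± 39.7 CPM in MNF and was not called.

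Of 12 tested complement genes 8 were higher in MNF and 1 was lower, with a median of 2.87. The proteases of the first component were C1s1, at 4.79, 5.28 and 8.21 CPM in MEF and 221 and 118 CPM in MNF (log2 fold change 4.79 ± 0.32, adjusted p = 0.000133), and C1ra, at 4.19, 8.6 and 10.5 CPM in MEF and 123 and 86.6 CPM in MNF (log2 fold change 3.72 ± 0.29, adjusted p = 0.000198). Their inhibitor Serping1 had 4.49, 13.49 and 5.72 CPM in MEF and 126 and 90.5 CPM in MNF (log2 fold change 3.71 ± 0.36, adjusted p = 0.000367). Cfb, factor B of the alternative pathway, had 0.599, 0.587 and 0.995 CPM in MEF and 16.3 and 13.8 CPM in MNF (log2 fold change 4.33 ± 0.38, adjusted p = 0.000255). C3, the central component, had 0.599, 1.37 and 0.995 CPM in MEF and 59.6 and 8.12 CPM in MNF (log2 fold change 4.999 ± 0.89, adjusted p = 0.00371). C4b had 0, 0.391 and 0.498 CPM in MEF and 15.4 and 7.57 CPM in MNF (log2 fold change 5.06 ± 0.65, adjusted p = 0.00103). MNF replicate 1 was the higher MNF library for all 6, and by the widest margin for C3. C2 (5.69, 4.89 and 4.23 CPM in MEF and 27.2 and 13.1 CPM in MNF, log2 fold change 2.03 ± 0.35, adjusted p = 0.00346) and the regulator Cd55 (8.98, 7.43 and 13.4 CPM in MEF and 34.9 and 33.6 CPM in MNF, log2 fold change 1.79 ± 0.25, adjusted p = 0.00147) were also higher, and without MNF replicate 1 the adjusted p of C2 was 0.0551. Masp1, a protease of the lectin pathway, went the other way at 32.9, 29.1 and 27.9 CPM in MEF and 2.57 and 4.25 CPM in MNF (log2 fold change -3.13 ± 0.27, adjusted p = 0.000247).

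Genes of the cell cycle were lower in MNF, with 2 exceptions. All 28 tested genes of mitosis and 28 of 30 genes of DNA replication were lower, with medians of -2.23 and -2.08. Elements that the DREAM and E2F complexes are known to use are shown for 2 members of each list with small adjusted p. The CHR element was searched as TTTGAA and the E2F motif as TTTNNCGC, both strands, in the same RefSeq windows. The 90-base stretches lie at chr10:69352913-69353002 on the minus strand (Cdk1), chr2:164769839-164769928 on the plus strand (Ube2c), chr11:98907973-98908062 on the plus strand (Cdc6) and chr17:56303241-56303330 on the plus strand (Uhrf1), with the CHR in capitals in the first 2 lines and the E2F motif in the last 2.
Cdk1: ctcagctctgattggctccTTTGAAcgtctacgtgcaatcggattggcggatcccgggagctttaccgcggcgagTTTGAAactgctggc
Ube2c: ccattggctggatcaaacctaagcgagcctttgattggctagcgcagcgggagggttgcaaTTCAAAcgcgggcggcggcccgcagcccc
Cdc6: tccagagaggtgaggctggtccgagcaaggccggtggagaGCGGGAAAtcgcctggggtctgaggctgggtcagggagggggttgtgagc
Uhrf1: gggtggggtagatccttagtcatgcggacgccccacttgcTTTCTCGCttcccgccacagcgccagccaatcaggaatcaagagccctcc

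TTTGAA was present in 15 of 23 mitosis windows (65.2%) against 20.2% of all windows, and CCAAT, the box that often accompanies it, in 18 of 23 (78.3%) against 41.1%. TTTNNCGC was present in 12 of 25 windows of DNA replication genes (48%) against 5.93% of all. Among tested genes with a window the shares were 14.2% for TTTGAA, 43.4% for CCAAT and 9.94% for TTTNNCGC. Matches of the motifs can overlap, and all 23 mitosis genes were called whether or not they held one.

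Cdk1, the kinase that starts mitosis, had 160.4, 147 and 124 CPM in MEF and 27.5 and 30.6 CPM in MNF (log2 fold change -2.302 ± 0.17, adjusted p = 0.000167). Its partner cyclin A2 (Ccna2) had 183, 165 and 138 CPM in MEF and 30.6 and 32.9 CPM in MNF (log2 fold change -2.35 ± 0.17, adjusted p = 0.000167). Top2a, the topoisomerase that separates sister chromatids, had 399.6, 386 and 341 CPM in MEF and 74 and 87.7 CPM in MNF (log2 fold change -2.22 ± 0.16, adjusted p = 0.000166). The spindle protein Tpx2 had 215, 208 and 175 CPM in MEF and 41.7 and 45.1 CPM in MNF (log2 fold change -2.200 ± 0.15, adjusted p = 0.000154). Ube2c, a ubiquitin-conjugating enzyme of the anaphase-promoting complex, had 105, 98.5 and 75.2 CPM in MEF and 16.3 and 14.4 CPM in MNF (log2 fold change -2.59 ± 0.20, adjusted p = 0.000185). Both MNF libraries lay below every MEF library for all 28 mitosis genes, beside 33.1% of all genes tested. Among replication genes, Rrm2, which makes deoxynucleotides, had 255, 246 and 164 CPM in MEF and 25.1 and 22.9 CPM in MNF (log2 fold change -3.21 ± 0.24, adjusted p = 0.000182). The origin licensing factor Cdc6 had 29, 27.4 and 20.2 CPM in MEF and 2.94 and 1.85 CPM in MNF (log2 fold change -3.400 ± 0.32, adjusted p = 0.000319). Mcm3 of the replicative helicase had 125, 149.6 and 91.8 CPM in MEF and 18.4 and 20.1 CPM in MNF (log2 fold change -2.67 ± 0.23, adjusted p = 0.000255). Uhrf1, which guides the maintenance DNA methyltransferase, had 134, 154 and 93.6 CPM in MEF and 18.7 and 18.8 CPM in MNF (log2 fold change -2.76 ± 0.24, adjusted p = 0.000255). That enzyme, Dnmt1, had 202, 248 and 163 CPM in MEF and 70.1 and 71.8 CPM in MNF (log2 fold change -1.53 ± 0.19, adjusted p = 0.000995). The 2 replication genes not called were Gins2, at 50.6, 54.4 and 33.1 CPM in MEF and 35.4 and 27.9 CPM in MNF, and the transcription factor E2f1, at 40.1, 40.1 and 28.6 CPM in MEF and 31.8 and 31.2 CPM in MNF, and both overlapped between the groups.

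Of 23 tested genes of the p53 and Ink4 list 3 were higher in MNF (13%) and 1 was lower (4.35%), near or under the 11.4% and 11.3% of all genes. Cdkn2a, the locus of the inhibitors p16Ink4a and p19Arf, had 14.7, 8.8 and 23.6 CPM in MEF and 39.6 and 51.3 CPM in MNF (log2 fold change 1.55 ± 0.34, adjusted p = 0.00903), and without MNF replicate 2 its adjusted p was 0.0809. Trp53inp1, a p53 target, had 39.5, 45 and 77.1 CPM in MEF and 170.3 and 157 CPM in MNF (log2 fold change 1.599 ± 0.26, adjusted p = 0.00248). Cdkn1a, the inhibitor p21, had 270.2 ± 41.3 CPM in MEF and 354 ± 27.3 CPM in MNF and was not called.

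Fetal growth regulators were lower in MNF or not called. Hmga2 (chr10:120361275-120476469), a chromatin protein of embryonic and growing tissue, had 1053, 823 and 709 CPM in MEF and 34.5 and 27.9 CPM in MNF, a fall of 27.6-fold (log2 fold change -4.79 ± 0.25, adjusted p = 6.88e-05). Igf2bp1, an RNA-binding protein that binds Igf2 mRNA, had 90.1, 109.9 and 97.3 CPM in MEF and 35.2 and 30.8 CPM in MNF (log2 fold change -1.59 ± 0.15, adjusted p = 0.000349), while its relatives Igf2bp2 (174 ± 5.7 CPM in MEF and 114 ± 11.6 CPM in MNF) and Igf2bp3 (89.7 ± 15.3 CPM in MEF and 45.7 ± 3.58 CPM in MNF) differed by less than 2-fold and were not called. Of the 8 tested members of this list 4 were lower in MNF, and none was higher. Lin28b, which represses let-7 microRNAs, had 9 counts in MEF and 1 in MNF and was not tested.

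Imprinted genes did not move as a block, and the median of the 33 tested was 0.16. Of these, 7 were higher in MNF (21.2%, beside 11.4% of all genes) and 5 were lower (15.2%, beside 11.3%). At the Igf2 locus on chromosome 7, Igf2 (chr7:142650766-142666816), the fetal growth factor expressed from the paternal copy, had 4360.4, 8676 and 5142 CPM in MEF and 1064 and 895 CPM in MNF (log2 fold change -2.63 ± 0.32, adjusted p = 0.000868). H19 (chr7:142575529-142578143), the maternally expressed noncoding RNA beside it, had 4057, 11129 and 5354 CPM in MEF and 3322 and 4431 CPM in MNF and was not called (log2 fold change -0.82, adjusted p = 0.139). MEF replicate 2 was the highest library for both. At the Dlk1-Meg3 locus on chromosome 12, the maternal noncoding RNA Meg3 (chr12:109541001-109571726) had 387, 757 and 737 CPM in MEF and 2925 and 2016 CPM in MNF (log2 fold change 1.98 ± 0.30, adjusted p = 0.00196). Rtl1, a retrotransposon-derived gene of the same cluster, had 2.39, 5.28 and 2.74 CPM in MEF and 23.1 and 17.2 CPM in MNF (log2 fold change 2.48 ± 0.35, adjusted p = 0.00154). Rian, a further transcript of that cluster, had 765 ± 97.8 CPM in MEF and 1086 ± 94.2 CPM in MNF, short of 2-fold. Plagl1, a zinc finger factor known to act on other imprinted genes, had 87.1, 209 and 136 CPM in MEF and 479.6 and 511 CPM in MNF (log2 fold change 1.77 ± 0.31, adjusted p = 0.00327). Sgce, a sarcoglycan, had 28.7, 33.4 and 28.4 CPM in MEF and 102 and 80.5 CPM in MNF (log2 fold change 1.59 ± 0.16, adjusted p = 0.000381). Zdbf2 had 32.3, 44.2 and 28.6 CPM in MEF and 9.54 and 6.65 CPM in MNF (log2 fold change -2.12 ± 0.27, adjusted p = 0.00103). The imprinted counts were 4 higher and 2 lower without MNF replicate 1, and without MNF replicate 2 the count of lower genes was 2.

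Proteins that bind the insulin-like growth factors were called in both directions. Igfbp6, which prefers IGF2, had 39.5, 30.1 and 25.4 CPM in MEF and 149 and 117 CPM in MNF (log2 fold change 2.08 ± 0.20, adjusted p = 0.000349). Igfbp5 had 385, 822 and 1209 CPM in MEF and 180.4 and 298 CPM in MNF (log2 fold change -1.75 ± 0.45, adjusted p = 0.0171), which without MNF replicate 1 had an adjusted p of 0.136. The receptor that clears IGF2, Igf2r, had 856 ± 177 CPM in MEF and 861 ± 25.1 CPM in MNF and was not called.

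Most small leucine-rich proteoglycans and several collagens had more RNA in MNF. Of 10 tested proteoglycans of this class 7 were higher in MNF and none was lower, with a median of 2.67. Decorin (Dcn, chr10:97479609-97518143), which regulates collagen fibril width, had 37.1, 74.9 and 81.6 CPM in MEF and 1366 and 1171 CPM in MNF (log2 fold change 4.29 ± 0.31, adjusted p = 0.000166), or 74.1 TPM on average in MEF and 1572 TPM in MNF. Lumican (Lum) had 7.48, 42 and 37.8 CPM in MEF and 348 and 398 CPM in MNF (log2 fold change 3.65 ± 0.50, adjusted p = 0.00134). Prelp, which anchors basement membranes to collagen, had 4.49, 7.23 and 6.22 CPM in MEF and 156 and 114 CPM in MNF (log2 fold change 4.46 ± 0.22, adjusted p = 6.02e-05). Podn had 8.98, 19 and 28.1 CPM in MEF and 162 and 165 CPM in MNF (log2 fold change 3.11 ± 0.33, adjusted p = 0.000478). Fmod had 22.2, 49.9 and 33.6 CPM in MEF and 204 and 171 CPM in MNF (log2 fold change 2.39 ± 0.28, adjusted p = 0.000708). Aspn, which binds TGF-beta, had 77.8, 94 and 119 CPM in MEF and 449.8 and 493 CPM in MNF (log2 fold change 2.28 ± 0.19, adjusted p = 0.000217). The MNF libraries lay above all MEF libraries for each of these 6, beside 34.0% of all genes tested. MEF replicate 1 was the lowest library for each of the 6. Ecm2 was the 7th, at 0, 0.782 and 0.747 CPM in MEF and 4.59 and 4.25 CPM in MNF (log2 fold change 2.94 ± 0.67, adjusted p = 0.0105), and without MNF replicate 1 or 2 its adjusted p was 0.102 or 0.081. Biglycan (Bgn), by TPM the most abundant of the class in both groups (3784 TPM in MEF, 7787 TPM in MNF), had 3416 ± 167 CPM in MEF and 6605 ± 18.4 CPM in MNF and fell short of 2-fold, and Ogn had 131 ± 31.2 CPM in MEF and 126 ± 48.5 CPM in MNF.

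Among the 11 tested fibrillar collagen genes 3 were higher (27.3%, beside 11.4% of all genes) and 1 was lower (9.09%, beside 11.3%). Col3a1, the type III collagen of young skin, had 1672, 4056 and 2769 CPM in MEF and 10171 and 13108 CPM in MNF (log2 fold change 2.04 ± 0.33, adjusted p = 0.00273). Col5a2, of the type V fibril core, had 2605, 2395 and 3048 CPM in MEF and 5681 and 5959 CPM in MNF (log2 fold change 1.12 ± 0.17, adjusted p = 0.00183). Col1a1, a type I chain, had 14764 ± 1962 CPM in MEF and 24436 ± 1357 CPM in MNF (log2 fold change 0.73), and Col1a2, the other, had 8716 ± 841 CPM in MEF and 16872 ± 227 CPM in MNF (log2 fold change 0.95). Neither type I chain was called. Of the other collagens, Col12a1, which coats fibrils, had 2834, 2887 and 3436 CPM in MEF and 9674 and 9165 CPM in MNF (log2 fold change 1.63 ± 0.17, adjusted p = 0.000414), whereas Col4a1 of basement membranes had 1936, 1692 and 1687 CPM in MEF and 689.5 and 615 CPM in MNF (log2 fold change -1.44 ± 0.16, adjusted p = 0.000555). Col8a1 had 402, 304 and 270.5 CPM in MEF and 61.7 and 103 CPM in MNF (log2 fold change -1.98 ± 0.27, adjusted p = 0.00131). Col10a1, of hypertrophic cartilage, had 7.48, 29.9 and 18.4 CPM in MEF and 0.183 and 0 CPM in MNF, or 252 counts against 1, a ratio of 219-fold (95% counting interval 39 to 8700.0), with an adjusted p of 0.00138, beside the chondrocyte sums given above. Adamts2, which trims procollagen, had 45.8, 66.1 and 57.7 CPM in MEF and 536 and 537 CPM in MNF (log2 fold change 3.24 ± 0.17, adjusted p = 7.54e-05). Of 21 collagen processing genes 17 were not called, 2 were higher and 2 were lower. That is 9.52% each way, under the 11.4% and 11.3% of all genes.

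Elastic fibre and matrix glycoprotein genes were called in both directions, 17 of 34 higher and 5 lower, with a median of 1.02. Tenascin-X (Tnxb), which spaces collagen fibrils in skin, had 0.599, 1.17 and 1.49 CPM in MEF and 31 and 16.1 CPM in MNF (log2 fold change 4.37 ± 0.43, adjusted p = 0.000381). The microfibril protein Mfap5 had 28.1, 13.3 and 38.3 CPM in MEF and 219 and 204 CPM in MNF (log2 fold change 3.01 ± 0.34, adjusted p = 0.000628). Thbs2, a thrombospondin, had 765, 815 and 1063 CPM in MEF and 3209 and 3181 CPM in MNF (log2 fold change 1.86 ± 0.18, adjusted p = 0.000354). Matn2 had 31.4, 37.1 and 45.5 CPM in MEF and 148 and 156 CPM in MNF (log2 fold change 1.999 ± 0.16, adjusted p = 0.000218). Elastin itself (Eln) went the other way, at 121, 505 and 225 CPM in MEF and 48.3 and 19.2 CPM in MNF (log2 fold change -3.08 ± 0.65, adjusted p = 0.0075), with a wide spread in MEF, and without MNF replicate 2 its adjusted p was 0.0567. Fbln5, which guides elastin assembly, had 729, 709 and 702 CPM in MEF and 285 and 287 CPM in MNF (log2 fold change -1.32 ± 0.14, adjusted p = 0.000426). Ltbp1, which stores latent TGF-beta, had 609, 529 and 438 CPM in MEF and 122 and 96.2 CPM in MNF (log2 fold change -2.26 ± 0.20, adjusted p = 0.000277). Osteopontin (Spp1) had 356, 179.9 and 638 CPM in MEF and 34 and 65.9 CPM in MNF (log2 fold change -2.97 ± 0.55, adjusted p = 0.0043).

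Of 18 tested metalloproteinases and inhibitors 8 were higher and 2 were lower. Mmp2, the gelatinase of fibroblasts, had 135, 264 and 195 CPM in MEF and 1364 and 1170.0 CPM in MNF (log2 fold change 2.67 ± 0.26, adjusted p = 0.000354). Mmp23 had 20.1, 24.4 and 28.9 CPM in MEF and 141 and 153 CPM in MNF (log2 fold change 2.58 ± 0.16, adjusted p = 0.000126). Mmp19 had 25.1, 21.1 and 33.6 CPM in MEF and 101 and 104 CPM in MNF (log2 fold change 1.95 ± 0.19, adjusted p = 0.00037). The inhibitor Timp2 had 609, 732 and 711 CPM in MEF and 1584 and 1418 CPM in MNF (log2 fold change 1.13 ± 0.15, adjusted p = 0.00124). Timp1 had 295, 183 and 211 CPM in MEF and 88.8 and 132 CPM in MNF (log2 fold change -1.05 ± 0.25, adjusted p = 0.0122), and without MNF replicate 1 its adjusted p was 0.118, while without MEF replicate 1 its log2 fold change was -0.84 (adjusted p = 0.0227). Mmp14, which activates Mmp2, had 702 ± 85.6 CPM in MEF and 1148 ± 37.2 CPM in MNF and was not called.

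**Figure D5:**
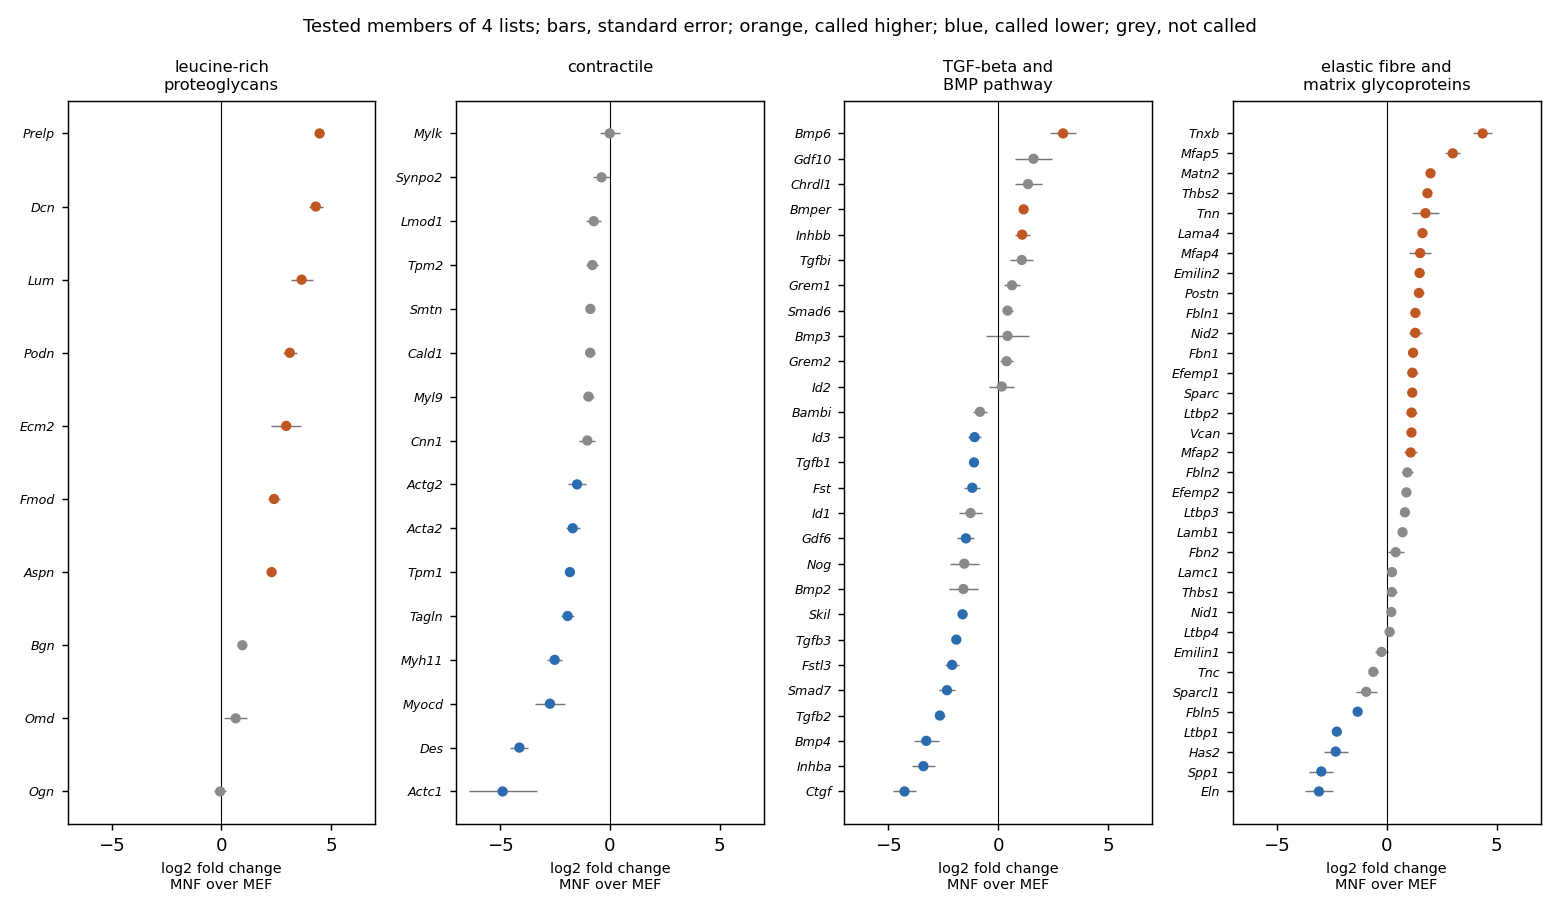
Log2 fold changes of MNF over MEF (horizontal axis) with bars of 1 standard error for tested genes of 4 lists. Most leucine-rich proteoglycans (9 of 10, Ogn aside) and most matrix glycoproteins lie to the right of 0 and contractile and TGF-beta pathway genes mostly to the left, with orange for called higher, blue for called lower and grey for not called.

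Of 16 tested contractile genes, which smooth muscle and activated fibroblasts share, 8 were lower in MNF, none was higher and 8 were not called, with a median of -1.26. Smooth muscle actin (Acta2) had 8233, 5263 and 4217 CPM in MEF and 1525 and 2139 CPM in MNF (log2 fold change -1.69 ± 0.31, adjusted p = 0.00442). Transgelin (Tagln) had 3581, 2038 and 1904 CPM in MEF and 595 and 729 CPM in MNF (log2 fold change -1.92 ± 0.30, adjusted p = 0.00231). Tropomyosin 1 (Tpm1) had 4219, 3505 and 3030.2 CPM in MEF and 974 and 1061 CPM in MNF (log2 fold change -1.82 ± 0.20, adjusted p = 0.000514). Each of these 3 was highest in MEF replicate 1. Every MEF library lay above both MNF libraries for the 3, as at 33.1% of all genes tested. Smooth muscle myosin (Myh11) had 61.1, 85.6 and 40.1 CPM in MEF and 10.1 and 11.8 CPM in MNF (log2 fold change -2.51 ± 0.33, adjusted p = 0.00118). Desmin (Des), shared with skeletal muscle, had 71.8, 107 and 75.2 CPM in MEF and 7.52 and 2.22 CPM in MNF (log2 fold change -4.11 ± 0.41, adjusted p = 0.000391). The pericyte proteoglycan Cspg4 had 184, 144 and 106 CPM in MEF and 6.42 and 8.12 CPM in MNF (log2 fold change -4.31 ± 0.29, adjusted p = 0.000133). Mcam, an adhesion molecule of pericytes, had 152, 124 and 66.7 CPM in MEF and 8.08 and 19.6 CPM in MNF (log2 fold change -3.04 ± 0.45, adjusted p = 0.00179). Anpep, a peptidase listed with the pericytes that fibroblasts express too, had 20.7, 48.3 and 23.4 CPM in MEF and 194 and 145 CPM in MNF (log2 fold change 2.43 ± 0.33, adjusted p = 0.00128). The skeletal muscle genes given above were also higher in MEF by their sums (172 to 526 CPM against 35.5 and 45.7 CPM), and their part in the contractile result was not tested. The count of lower contractile genes was 5 without MNF replicate 1.

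The TGF-beta and BMP list had 13 of 28 tested members lower and 3 higher, with a median of -1.14. Among ligands, Tgfb2 had 85.3, 113 and 76.9 CPM in MEF and 13 and 16.1 CPM in MNF (log2 fold change -2.66 ± 0.22, adjusted p = 0.000222). Tgfb3 had 330.2, 274 and 289 CPM in MEF and 72.9 and 85.9 CPM in MNF (log2 fold change -1.91 ± 0.16, adjusted p = 0.000223). Inhba, the activin A chain, had 267, 103 and 89.1 CPM in MEF and 13.9 and 14.8 CPM in MNF (log2 fold change -3.402 ± 0.52, adjusted p = 0.00198). Fstl3, which binds activin, had 53.9, 37.5 and 36.1 CPM in MEF and 6.61 and 13.1 CPM in MNF (log2 fold change -2.099 ± 0.32, adjusted p = 0.00192). Among targets of the pathway, Ctgf, a matricellular growth modulator also known as a YAP target, had 2636, 963 and 932 CPM in MEF and 71.8 and 85.7 CPM in MNF (log2 fold change -4.26 ± 0.53, adjusted p = 0.000923). The feedback regulator Skil had 108, 111 and 93.3 CPM in MEF and 34 and 33.6 CPM in MNF (log2 fold change -1.62 ± 0.14, adjusted p = 0.000259). MEF replicate 1 stood above the other MEF libraries for Ctgf and Inhba. All MEF libraries stayed above MNF for both, as at 33.1% of all genes tested. Members called higher were Bmper, Bmp6 and Inhbb. Without MNF replicate 2 none of the 3 was called, with adjusted p values of 0.0215 for Bmper (then under 2-fold), 0.0562 for Bmp6 and 0.188 for Inhbb. Inhbb was also not called without MNF replicate 1 (0.106) or, at under 2-fold, without MEF replicate 2 (0.00762).

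Genes of caveolae and YAP targets gave 7 of 14 lower and none higher. Ankrd1, a YAP target, had 202, 92.3 and 69.2 CPM in MEF and 3.85 and 7.75 CPM in MNF (log2 fold change -4.37 ± 0.56, adjusted p = 0.00107). Cyr61 had 1238, 947 and 563 CPM in MEF and 232 and 258 CPM in MNF (log2 fold change -1.902 ± 0.31, adjusted p = 0.00277). The immediate early and AP-1 genes gave 10 of 21 lower and none higher, a count that ranged from 1 to 16 when 1 library was left out. It was 1 without MNF replicate 1, 3 without MNF replicate 2 and 16 without MEF replicate 3. Ier3, the member with the smallest adjusted p, had 85.6, 84.5 and 36.1 CPM in MEF and 12.8 and 17.9 CPM in MNF (log2 fold change -2.16 ± 0.39, adjusted p = 0.00389). Egr1 was not called at 224, 524 and 100.04 CPM in MEF and 124 and 87.9 CPM in MNF, and MEF replicate 2 was the highest library.

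Wnt pathway genes were called in both directions. On the Wnt list 6 of 26 tested genes were higher and 9 were lower. The secreted Wnt decoy Sfrp2 had 10.2, 57.5 and 15.2 CPM in MEF and 1002 and 701 CPM in MNF (log2 fold change 4.901 ± 0.61, adjusted p = 0.000946). Its relative Sfrp1 had 45.2, 179 and 60.5 CPM in MEF and 1204 and 1009 CPM in MNF (log2 fold change 3.53 ± 0.51, adjusted p = 0.00167). The R-spondin receptor Lgr5 had 3.29, 13.9 and 19.4 CPM in MEF and 115 and 116 CPM in MNF (log2 fold change 3.201 ± 0.43, adjusted p = 0.00124). The ligand Wnt5a, which drives outgrowth of limb and face, had 209, 156 and 139.6 CPM in MEF and 54 and 49.3 CPM in MNF (log2 fold change -1.701 ± 0.20, adjusted p = 0.000729). Wnt11 had 10.8, 18.4 and 9.71 CPM in MEF and 2.2 and 2.58 CPM in MNF (log2 fold change -2.44 ± 0.40, adjusted p = 0.00285). Wnt4 had 23.3, 25.2 and 16.2 CPM in MEF and 3.3 and 8.31 CPM in MNF (log2 fold change -1.89 ± 0.39, adjusted p = 0.00705). The inhibitor Dkk2 had 41.3, 36.4 and 57 CPM in MEF and 13.4 and 7.75 CPM in MNF (log2 fold change -2.08 ± 0.29, adjusted p = 0.00149).

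The hedgehog and Notch list had 8 of 14 lower and 1 higher, with a median of -1.33. The receptor Notch1 had 82.6, 78.2 and 69.2 CPM in MEF and 22.9 and 24 CPM in MNF (log2 fold change -1.71 ± 0.15, adjusted p = 0.000255). Hes1, a Notch target, had 79.9, 94.2 and 46.5 CPM in MEF and 22.8 and 18.6 CPM in MNF (log2 fold change -1.83 ± 0.30, adjusted p = 0.00268). Heyl, another, had 7.78, 8.99 and 6.97 CPM in MEF and 1.47 and 1.85 CPM in MNF (log2 fold change -2.24 ± 0.38, adjusted p = 0.00304). Hey1 had 92 counts in MEF and 2 in MNF, a ratio of 40.1-fold (95% counting interval 10.8 to 336), and Hey2 had 46 and 0, at least 14.5-fold (adjusted p = 0.000729 and 0.00574). Hhip, a hedgehog target that traps the ligand, had 5.99, 8.8 and 6.72 CPM in MEF and 0.183 and 0.554 CPM in MNF (log2 fold change -4.198 ± 0.57, adjusted p = 0.00132). Of 12 retinoid genes 5 were lower and none was higher, led by the receptor and retinoic acid target Rarb, at 5.09, 12.3 and 7.47 CPM in MEF and 0.551 and 0.923 CPM in MNF (log2 fold change -3.47 ± 0.58, adjusted p = 0.00288).

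Growth factors were called in both directions, 8 of 29 higher and 5 lower. Vegfd, a lymphatic growth factor, had 14.4, 26.4 and 16.2 CPM in MEF and 382 and 276 CPM in MNF (log2 fold change 4.09 ± 0.26, adjusted p = 0.000126). Pleiotrophin (Ptn) had 205, 635 and 329.7 CPM in MEF and 3546 and 3249 CPM in MNF (log2 fold change 3.12 ± 0.41, adjusted p = 0.00112). Fgf7, which fibroblasts make for overlying epithelium, had 43.7, 28.3 and 17.4 CPM in MEF and 109 and 92.5 CPM in MNF (log2 fold change 1.77 ± 0.30, adjusted p = 0.00323). Fgf10, with a like role, had 6.59, 4.89 and 4.98 CPM in MEF and 28.1 and 16.1 CPM in MNF (log2 fold change 2.02 ± 0.31, adjusted p = 0.00206). Kitl, the ligand for melanocytes and mast cells, had 11.4, 8.41 and 10.5 CPM in MEF and 52.5 and 40.6 CPM in MNF (log2 fold change 2.22 ± 0.20, adjusted p = 0.000304). The receptor Pdgfra had 121, 239 and 186 CPM in MEF and 649 and 611 CPM in MNF (log2 fold change 1.79 ± 0.25, adjusted p = 0.00149). Hbegf, a ligand of the EGF receptor, went the other way at 151, 78.8 and 48 CPM in MEF and 4.22 and 6.65 CPM in MNF (log2 fold change -4.08 ± 0.54, adjusted p = 0.00123).

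Chemokines and cytokines were called 7 higher and 7 lower of 27 tested. With all 28 libraries in the fit 1 was higher and 1 was lower. With a minimum count of 50, which tests fewer genes, 3 were higher and 6 were lower. The interleukin 1 receptor Il1r1 had 41, 86.2 and 51.3 CPM in MEF and 202 and 251 CPM in MNF (log2 fold change 1.92 ± 0.28, adjusted p = 0.00169). The chemokine Ccl8 had no count in MEF and 4.05 CPM on average in MNF, at least 16.9-fold higher (adjusted p = 0.00615). Cxcl14 had 76, 68.6 and 120.2 CPM in MEF and 9.54 and 14 CPM in MNF (log2 fold change -2.901 ± 0.31, adjusted p = 0.000478). The cytokine Lif had 19.8, 18.2 and 12.4 CPM in MEF and 4.04 and 2.58 CPM in MNF (log2 fold change -2.33 ± 0.34, adjusted p = 0.00172). Ptgs2, the inducible cyclooxygenase, had 455, 184 and 118 CPM in MEF and 10.3 and 23.8 CPM in MNF (log2 fold change -3.88 ± 0.65, adjusted p = 0.00302).

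Of the lists on metabolism and stress, oxidative stress genes had 5 of 17 higher and 1 lower. Gpx3, a secreted glutathione peroxidase, had 21, 39.5 and 20.2 CPM in MEF and 320.1 and 327 CPM in MNF (log2 fold change 3.57 ± 0.27, adjusted p = 0.000185). Sod3, the extracellular superoxide dismutase, had 8.98, 13.1 and 13.2 CPM in MEF and 130.5 and 129.8 CPM in MNF (log2 fold change 3.45 ± 0.17, adjusted p = 6.02e-05). Gstm2, a glutathione transferase with close paralogues, had 17.7, 22.3 and 21.6 CPM in MEF and 145 and 153 CPM in MNF (log2 fold change 2.85 ± 0.14, adjusted p = 6.02e-05). Lpl, lipoprotein lipase, had 30.8, 30.3 and 37.6 CPM in MEF and 1059 and 801 CPM in MNF, a rise of 28.3-fold (log2 fold change 4.82 ± 0.19, adjusted p = 4.95e-05). Cebpa, a factor of fat cell differentiation, had 2.99, 6.65 and 5.23 CPM in MEF and 36 and 22.3 CPM in MNF (log2 fold change 2.51 ± 0.34, adjusted p = 0.00126). Fasn, of fatty acid synthesis, had 524, 657 and 624 CPM in MEF and 241 and 243 CPM in MNF (log2 fold change -1.31 ± 0.16, adjusted p = 0.000757). On the list of cholesterol and fatty acid synthesis, 18 of 21 genes were not called and 3 were lower (14.3%, beside 11.3% of all genes). Hk2, hexokinase 2, had 113, 76.6 and 72.2 CPM in MEF and 10.8 and 24.6 CPM in MNF (log2 fold change -2.295 ± 0.35, adjusted p = 0.00198). The glycolysis list as a whole was called 3 higher and 3 lower of 18. That is 16.7% each way, beside 11.4% and 11.3% of all genes.

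Across the whole series, with CPM scaled over all 28 libraries, Hmga2 was at 802 to 1180 CPM in MEF and at 11.9 to 215 CPM over the libraries of the other 8 groups. Slfn5 was at 123 and 130 CPM in MNF and at 0 to 9.46 CPM in the other 8 groups. Decorin was at 1360 and 1600 CPM in MNF, at 238 and 766 CPM in the MNF_ciHep libraries and at most 92.3 CPM elsewhere. These ranges are a description, with no test.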

How the data were processed

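Expected counts per gene, which need not be whole, and TPM were made by the authors with RSEM 1.2.4 on mm10, per the submitters' processing notes. Total RNA came from a Trizol extraction and went into Illumina TruSeq libraries, per the labels' protocols. The aligner, annotation release and strand setting are not given in the sources used here. The deposited counts were rounded and, of 31673 genes, the 12762 that passed filterByExpr (minimum count 10) were fitted with edgeR 4.0.16 (R 4.3.3), TMM scaling and the quasi-likelihood test on the 5 libraries only, with Benjamini-Hochberg adjustment. The SE is the log2 fold change divided by the square root of F. The deposited TPM served for levels between genes and for limma 3.58.1 on log2(TPM + 1). DESeq2 1.42.0 was an alternative. The deposited effective lengths imply a median fragment or read length of 74.5 bases in each of the 5 libraries.

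On simulated data for this comparison, 30 of 78 genes changed 2-fold, 54 of 59 changed 4-fold and 61 of 63 changed 8-fold were recovered. There were 11 false calls among 12519 genes. With no fold minimum 44 of the 78 genes changed 2-fold were recovered. The simulation changed far fewer genes than were called in the data. A gene without a count in a group is given as a bound over a floor of 3 counts per group, and list medians did not move to 2 decimals with such genes at their bound. Intervals and floors cover counting error only. Named genes were the 12 largest rises and falls, and of each list up to 8 called members in each direction by adjusted p and up to 4 uncalled members by level, with the identity, Hox and positional lists open in full. Other genes, among them Stat2, the IRF factors and Ptprc, were named for their role after their values were seen. Some genes are counted in the lists but not reported here. The members and lists were chosen with earlier results of these data known. Positions are from GENCODE M21 (GRCm38), which held 31426 of the 31673 gene IDs, and promoter windows are from RefSeq (GRCm38.p6). Python 3.11.15 with pandas 2.3.3, scipy 1.17.1 and matplotlib 3.10.9 was used for tables and plots.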

Additional observations from a re-analysis of the deposited data

How the results depend on the processing

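With 2 MNF libraries the spread rests on 3 residual degrees of freedom. In the simulation 30 of 78 genes changed 2-fold were recovered, and 44 of 78 with no fold minimum. The call asks for an estimate of at least 2-fold, so it misses part of the true 2-fold changes by its own rule. Of 401 named called genes, 391 kept their call with DESeq2, 401 with RLE scaling and 348 of 396 with limma on log2(TPM + 1). Without MNF replicate 1, 111 of 400 were not called, and without MNF replicate 2, 96 of 399. With all 28 libraries in the fit, 199 of 399 were not called. The cause was not tested.

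With no fold minimum, 2538 genes were higher, 2742 were lower and 12 imprinted genes were higher. With all 28 libraries these counts were 629, 751 and 3, and 181 list members were called. In that fit no imprinted gene and 3 Hox genes were lower, no Hox gene was higher, 12 positional, 4 contractile, 3 TGF-beta and BMP and 1 immediate early gene were lower, 1 TGF-beta and BMP gene was higher, and 1 elastic fibre and matrix gene was higher with 2 lower. With a minimum count of 50, which tests fewer genes, 4 Hox and 12 positional genes were lower. With limma on log2(TPM + 0.1), 6 immediate early genes were lower.

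Leaving out 1 library gave 794 to 1538 genes higher and 989 to 1458 lower. The ranges were 2 to 4 Hox genes higher and 4 to 7 lower, 4 to 8 imprinted genes higher and 2 to 5 lower, 5 to 10 contractile genes lower, 0 to 4 TGF-beta and BMP genes higher and 1 to 16 immediate early genes lower. Without MNF replicate 1 the log2 fold changes of Upk1b and Lrrn4 were -7.89 and -8.19, fitted against a library with no count, and without MNF replicate 2 they were 1.34 and 1.83.

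The deviations of same-numbered libraries from their group means correlated at -0.121 and -0.0779. With only 2 MNF libraries their deviations mirror each other (-1), so these values cannot decide whether the replicate numbers pair the samples. With the replicate number as a block, 1280 genes were higher and 1389 lower, and 15 immediate early genes were lower.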
